A study of Mus musculus with 6 samples.

Results

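Mast cells and basophils are granulocytes of allergic responses that carry the high-affinity receptor for immunoglobulin E and release histamine and proteases from granules. Both descend from c-Kit+ progenitors in bone marrow and spleen. Mast cells keep c-Kit on their surface, whereas mature basophils carry little of it. The genes examined are 7 textbook markers of these cells, taken by symbol: Cpa3, Fcer1a, Hdc, Mcpt8, Cma1, Tpsb2 and Prss34. All 7 were present among the 24054 genes of the expression table, whose unit is TPM, a level scaled to transcript length and to the library total.

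RNA-seq had been performed on spleen cells bound by CD117 (c-Kit) beads, with 1 library per mouse. The AML group, for acute myeloid leukaemia, held 3 mice, moribund when taken, with Flt3ITD/ITD, Dnmt3afl/- and MxCre. The MPN group, for myeloproliferative neoplasm, held 3 mice with Flt3ITD/ITD and Dnmt3afl/fl, whose labels name no Cre. Flt3-ITD is an activating internal tandem duplication of a receptor tyrosine kinase, here on both alleles in all mice, and Dnmt3a is a DNA methyltransferase. Mx-driven Cre responds to interferon and is active in blood and in other tissues. The labels do not say whether the floxed allele had been removed, and they give no age. Genotype, Cre and disease changed together, so their parts cannot be told apart. In bulk samples, a change in the number of cells of a type cannot be told apart from a change in RNA per cell.

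Dnmt3a averaged 12.6 ± 1.02 TPM in AML mice and 32.2 ± 2.53 TPM in MPN mice (SD, n = 3 each), and the groups did not overlap. Flt3 averaged 167 ± 29.3 TPM in AML mice and 110 ± 2.86 TPM in MPN mice (log2 fold change 0.59, limma adjusted p = 0.0179), and missed the threshold whichever MPN mouse was left out (adjusted p between 0.0552 and 0.0605). The selection marker Kit stood at 99.2 to 130 TPM in AML and at 145 to 152 TPM in MPN, and did not pass the test (limma adjusted p = 0.103). Relative depth, read from the steps of a second table of reads scaled to gene length and library total (RPKM), ranged from 0.749 to 1.31 in AML and from 0.949 to 1.06 in MPN. AML replicate 3 was the shallowest library. It also came from the only male of the AML group, as judged by Xist and Ddx3y, and all MPN mice were male. The file headers put MPN replicate 1 in a different sequencing run; the other 5 libraries shared one.

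Of the 7 genes, Cpa3 and Mcpt8 rose in AML, Hdc and Prss34 did not pass the test, and Cma1, Tpsb2 and Fcer1a were too low to be tested. A gene was tested where at least 3 of the 6 libraries reached 1 TPM, on log2(TPM + 1), by limma with Benjamini-Hochberg adjustment over all 12223 tested genes. The threshold was an adjusted p of 0.05. Over all tested genes, 20.1% were called higher in AML and 10.0% lower, 30.1% in all. The median log2 fold change was 0.13, and each change is to be read against this shift. Cpa3, Mcpt8, Hdc and Prss34 reached 1 TPM in all 6 libraries. Cma1 reached 1 TPM in 1 library, and Tpsb2 and Fcer1a were under 1 TPM in all 6.

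**Figure D1:**
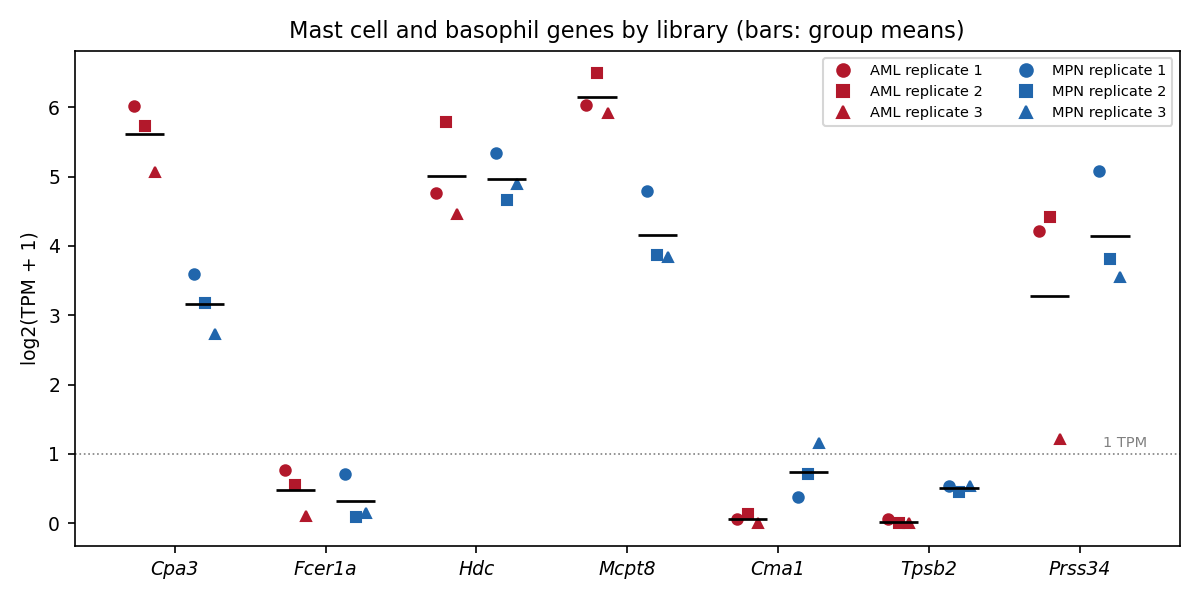
Levels of the 7 genes as log2(TPM + 1), with 1 point per mouse, AML in red to the left of MPN in blue, black bars for the group means and a dotted line at 1 TPM. Cpa3 and Mcpt8 lie higher in all AML mice than in any MPN mouse, Cma1 and Tpsb2 lie lower at levels near or under 1 TPM, and Prss34 falls to 1.31 TPM in AML replicate 3.

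Windows of 250 bases before the RefSeq start site are shown for the 2 genes that rose and for Prss34, which did not pass. They are on GRCm38.p6 and written 5′ to 3′ along the gene's own strand. Capitals mark the letters GATAA or, for the other strand, their complement, which form the core of the site that GATA factors read. These factors are shown because Gata2 is a regulator of both lineages and was itself higher in AML. Gata1, another GATA factor, stood lower in all AML mice but did not pass (log2 fold change -2.35, limma adjusted p = 0.0523). A link between the letters and either factor was not tested.
Cpa3, chr3:20242182-20242431, minus strand: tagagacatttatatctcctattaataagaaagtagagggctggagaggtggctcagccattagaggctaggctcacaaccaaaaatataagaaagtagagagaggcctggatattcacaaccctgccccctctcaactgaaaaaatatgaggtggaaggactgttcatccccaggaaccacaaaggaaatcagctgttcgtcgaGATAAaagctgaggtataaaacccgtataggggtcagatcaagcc
Mcpt8, chr14:56085198-56085447, minus strand: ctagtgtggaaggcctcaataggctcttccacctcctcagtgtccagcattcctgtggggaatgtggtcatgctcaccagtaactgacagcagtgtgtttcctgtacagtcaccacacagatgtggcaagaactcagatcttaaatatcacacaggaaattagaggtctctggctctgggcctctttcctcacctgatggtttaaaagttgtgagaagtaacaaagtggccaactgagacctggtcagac
Prss34, chr17:25298144-25298393, plus strand: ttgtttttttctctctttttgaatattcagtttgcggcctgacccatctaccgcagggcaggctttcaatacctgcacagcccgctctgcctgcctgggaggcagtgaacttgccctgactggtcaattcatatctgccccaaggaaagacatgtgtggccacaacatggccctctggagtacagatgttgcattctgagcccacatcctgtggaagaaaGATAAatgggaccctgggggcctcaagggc

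The Cpa3 window held GATAA once, with its first base at -45 from the start, and the Prss34 window held it once at -30. The Mcpt8 window held none. RefSeq windows, with 50 bases after the start added, were found for 6 of the 7 genes. GATAA stood in those of Cpa3, Fcer1a, Cma1 and Prss34 and in 25.4% of all 32851 windows. The letters TGTGGT, the core read by Runx factors, occurred 2 times in the Mcpt8 window and 1 time each in those of Cpa3, Fcer1a and Cma1, against 16.8% of all windows with at least 1 match. CATGTG, an E-box form that the mast cell factor Mitf reads, stood in those of Fcer1a and Prss34 and in 14.2% of all windows. It is 1 of the forms of the general E-box CANNTG, which all 6 held, as did 72.3% of all windows. TTCNNNGAA, the form that STAT factors read, stood in none of the 6 and in 8.3% of all windows. Each search covered both strands. A match describes letters in the window and does not show a bound site. Matches also depend on the start site taken. By the GENCODE M21 annotation, part of the Mcpt8 window and all of the Hdc window lie inside the genes themselves. Windows at the GENCODE starts were not searched.

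Cpa3 encodes carboxypeptidase A3, a metalloprotease of mast cell granules that is also transcribed in basophils and in their progenitors. It occupies chromosome 3, 20215620 to 20242181, minus strand, in GRCm38 by GENCODE M21, the annotation used for all positions of genes. Cpa3 had 63.9, 52.0 and 32.6 TPM in AML replicates 1 to 3 and 11.1, 8.04 and 5.60 TPM in MPN replicates 1 to 3. All AML mice stood above all MPN mice, and AML replicate 3 was the lowest of its group. The mean was 49.5 ± 15.8 TPM in AML and 8.25 ± 2.77 TPM in MPN (SD, n = 3 each), a ratio of 6.0. The log2 fold change was 2.44 (standard error 0.30, limma adjusted p = 0.00163.) Within the common run, which leaves out MPN replicate 1, it was 2.66 (limma adjusted p = 0.00357).

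Mcpt8 encodes a granule serine protease that serves as a marker of mouse basophils. It occupies chromosome 14, 56082166 to 56085273, minus strand. Mcpt8 had 64.5, 88.9 and 59.3 TPM in AML replicates 1 to 3 and 26.6, 13.6 and 13.3 TPM in MPN replicates 1 to 3. The groups did not overlap. The highest MPN value came from the library of the other run, as it did for Cpa3, Prss34, Hdc and Fcer1a. Cma1 was highest in MPN replicate 3, and Tpsb2 was equal in MPN replicates 1 and 3. The mean was 70.9 ± 15.8 TPM in AML and 17.8 ± 7.59 TPM in MPN (SD, n = 3 each), a ratio of 3.98. The log2 fold change was 1.98 (standard error 0.28, limma adjusted p = 0.00285), and 2.30 (adjusted p = 0.00142) within the common run. For Cpa3 and Mcpt8 the exact two-sided permutation test gave p = 0.1, its minimum for groups of 3. Over all tested genes, 34.8% had all AML mice above all MPN mice, and 16.1% had all AML mice below them.

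Prss34 encodes a tryptase-like serine protease of mouse basophils and occupies chromosome 17, 25298394 to 25300165, plus strand. It had 17.5, 20.3 and 1.31 TPM in AML replicates 1 to 3 and 32.8, 13.0 and 10.7 TPM in MPN replicates 1 to 3. AML replicates 1 and 2 lay inside the MPN range, whereas AML replicate 3 lay far below every other library. The log2 fold change of -0.87 had a standard error of 0.85 and a 95% interval of -2.85 to 1.11 (limma adjusted p = 0.459). Within the common run it was -0.40 (adjusted p = 0.773). Without AML replicate 3 it was 0.17 (adjusted p = 0.788). With a term for sex it was -2.94 (adjusted p = 0.0209). Because the AML group has 1 male, that fit in effect sets AML replicate 3 against the MPN mice, with its own spread taken to be that of the others.

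Prss34 and Mcpt8, both basophil genes, stood in different proportion in the libraries of the groups, which was not tested. Within each library, the ratio of Prss34 to Mcpt8 in TPM was 0.271, 0.229 and 0.0221 in AML replicates 1 to 3 and 1.23, 0.960 and 0.806 in MPN replicates 1 to 3. The ratio was below 1 in every library other than MPN replicate 1, the library of the other run, and the groups did not overlap. The ratio of Mcpt8 to Cpa3 was 1.01, 1.71 and 1.82 in AML and 2.39, 1.69 and 2.37 in MPN, where the groups overlapped. The ratio of Hdc to Cpa3 was 0.409, 1.04 and 0.644 in AML and 3.57, 3.02 and 5.14 in MPN, where the groups did not overlap. The ratios restate the levels of these genes, of which Cpa3 and Mcpt8 rose and Hdc and Prss34 did not pass. They are no separate evidence. Ratios of other pairs of genes were not computed, so the separation is not shown to be particular to these pairs.

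Hdc encodes histidine decarboxylase, which makes histamine, and is transcribed in mast cells, basophils and other myeloid cells. It occupies chromosome 2, 126593667 to 126619299, minus strand. Hdc had 26.1, 54.3 and 21.0 TPM in AML replicates 1 to 3 and 39.7, 24.3 and 28.8 TPM in MPN replicates 1 to 3. The groups overlapped, with both the highest and the lowest library in AML. The log2 fold change was 0.04 (standard error 0.35, 95% interval -0.78 to 0.85, limma adjusted p = 0.948). It was 0.22 (adjusted p = 0.696) within the common run, and its sign turned under median scaling and quantile normalization. The interval does not show that the groups were alike.

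**Figure D2:**
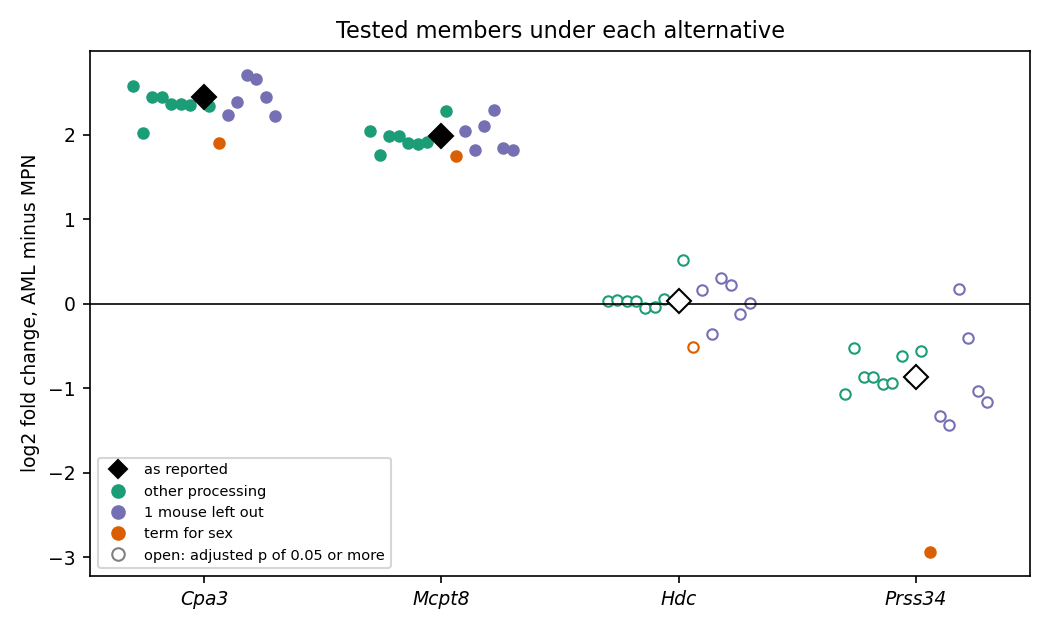
Log2 fold change of the 4 tested genes, AML minus MPN, for the reported value (diamond) and each alternative (circles), filled where the adjusted p was under 0.05. Cpa3 and Mcpt8 stay between 1.75 and 2.71 and filled throughout, while Hdc scatters around 0 and Prss34 is filled for the term for sex, at -2.94.

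Cma1 encodes the mast cell chymase and occupies chromosome 14, 55941451 to 55944675, minus strand. It had 0.04, 0.10 and 0 TPM in AML replicates 1 to 3 and 0.30, 0.63 and 1.22 TPM in MPN replicates 1 to 3. The steps of the RPKM table gave 2, 5 and 0 reads in AML and 22, 32 and 69 reads in MPN. All AML mice stood below all MPN mice. Tpsb2 encodes a mast cell tryptase and occupies chromosome 17, 25366305 to 25369098, plus strand. It had 0.04, 0 and 0 TPM in AML and 0.45, 0.36 and 0.45 TPM in MPN. The RPKM table gave 3, 0 and 0 reads in AML and 24, 15 and 24 reads in MPN. These groups did not overlap either, and a count of 0 allows up to 3 reads. Among the 5726 genes above 0 that missed the filter, 11.3% had all AML mice below all MPN mice. The exact two-sided permutation p was 0.1 for each. Reads of tryptase and chymase genes with near-identical copies can be shared between copies, so these low values are uncertain.

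Fcer1a encodes the alpha chain of the immunoglobulin E receptor, the subunit that binds the antibody. It occupies chromosome 1, 173221284 to 173227214, minus strand. Fcer1a had 0.70, 0.47 and 0.07 TPM in AML replicates 1 to 3 and 0.64, 0.06 and 0.11 TPM in MPN replicates 1 to 3. The RPKM table, from which the TPM values were not made, gave 45, 22 and 7 reads in AML and 32, 2 and 7 reads in MPN. The groups overlapped, and AML replicate 3 was again the lowest of its group (exact permutation p = 0.7).

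By mean TPM the order in AML was Mcpt8, Cpa3, Hdc, Prss34, Fcer1a, Cma1 and Tpsb2. The ranges of Mcpt8 and Cpa3 overlapped, as did those of Cpa3 and Hdc, of Fcer1a and Cma1, and of Cma1 and Tpsb2. Hdc and Prss34 did not overlap in AML, nor did Prss34 and Fcer1a. In MPN the order was Hdc, Prss34, Mcpt8, Cpa3, Cma1, Tpsb2 and Fcer1a. There the ranges of neighbours overlapped other than between Mcpt8 and Cpa3 and between Cpa3 and Cma1. Among all 24054 genes, Mcpt8 ranked 2362 by mean TPM in AML and 6903 in MPN, and Cpa3 ranked 3468 in AML and 9075 in MPN. In the RPKM table the AML to MPN ratio of means was 6.37 for Cpa3, 4.13 for Mcpt8, 1.12 for Hdc and 0.733 for Prss34. All 7 genes stood as in the TPM table, overlapping or apart.

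Mcpt8 and Cma1 were taken as the ends of a stretch of the mast cell protease cluster on chromosome 14. Between and including them, GENCODE M21 annotates 7 protein-coding genes, of which Mcpt8 and Cma1 reached 1 TPM in any library. The other 5, Cma2, Mcpt1, Mcpt9, Mcpt2 and Mcpt4, had at most 0.45 TPM, in MPN replicate 3 for Mcpt4, a chymase of connective tissue mast cells. On chromosome 17, the tryptase cluster from Prss34 to Tpsg1 holds 6 protein-coding genes. Prss34 was the only 1 of these to reach 1 TPM, and the tryptase Tpsab1 had at most 0.07 TPM, in AML replicate 3. Within each of these stretches, the basophil gene taken as an end had the highest level in every library. Genes beyond the ends were not counted. Cpa3, which mast cells and basophils share, stood at 5.60 to 63.9 TPM in all libraries, whereas the chymase and tryptase genes of mature mast cells lay near or under 1 TPM. Fcer1a, which both cell types carry, was under 1 TPM throughout.

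Partners of the receptor were measured next. Fcer1a works with a beta chain, Ms4a2, and a gamma chain, Fcer1g, which many myeloid receptors share. Ms4a2 had 5.16, 4.63 and 0.86 TPM in AML replicates 1 to 3 and 3.31, 2.35 and 1.20 TPM in MPN replicates 1 to 3. As with Prss34 and Fcer1a, AML replicate 3 was the lowest library of its group, and the groups overlapped (log2 fold change 0.34, standard error 0.48, limma adjusted p = 0.614). Fcer1g fell to 258 ± 12.9 TPM in AML mice, against 496 ± 102 TPM in MPN mice (SD, n = 3 each, log2 fold change -0.92, adjusted p = 0.00478). Of the 14 genes of receptor signalling, all tested, 2 rose, 2 fell and 10 did not pass, with a median log2 fold change of -0.21 against 0.13 for all tested genes. The adaptor gene Lat averaged 52.3 ± 31.2 TPM in AML mice and 4.92 ± 0.165 TPM in MPN mice, and rose by 3.02 on the log2 scale (adjusted p = 0.00130). Lat2, a related adaptor, rose by 0.61 (adjusted p = 0.0138), and the kinase gene Fyn fell by 0.76 (adjusted p = 0.0281). Lat2 missed the threshold when MPN replicate 1 or 2 was left out, or when sex was modelled, at adjusted p values between 0.0556 and 0.0837. Fyn kept its call when AML replicate 3 was left out, but missed the threshold on leaving out any other mouse (adjusted p between 0.0527 and 0.0955) or on modelling sex (log2 fold change -0.35, adjusted p = 0.358).

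Granule storage genes included Srgn, the proteoglycan core that holds histamine and proteases in granules of many blood cells. Srgn had 1351, 1398 and 1334 TPM in AML replicates 1 to 3 and 729, 707 and 622 TPM in MPN replicates 1 to 3. The groups did not overlap, and the log2 fold change was 0.99 (standard error 0.11, limma adjusted p = 0.00104). Of the 10 listed genes of granule proteases and storage, 3 were tested, of which Srgn and Ctsg rose and Ndst2, a heparan sulfate enzyme, did not pass (adjusted p = 0.948), with a median log2 fold change of 0.99. Ctsg, the protease cathepsin G of myeloid granules, averaged 1283 ± 387 TPM in AML mice and 335 ± 46.1 TPM in MPN mice. The other 7 were the low proteases of the clusters, Tpsg1 and Mcpt9 being listed at 0 in all libraries.

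Genes of histamine transport and lipid mediators moved in both directions. Of 9 listed, 8 were tested, of which 3 rose, 1 fell and 4 did not pass, with a median log2 fold change of -0.09. Slc18a2, the vesicle transporter that loads histamine into granules, had 30.5, 18.5 and 11.0 TPM in AML replicates 1 to 3 and 6.94, 3.69 and 1.92 TPM in MPN replicates 1 to 3. All AML mice stood above all MPN mice (log2 fold change 2.03, standard error 0.45, limma adjusted p = 0.0147). Slc18a2 missed the threshold when MPN replicate 3 was left out (1.67, adjusted p = 0.0545) or sex was modelled (1.33, adjusted p = 0.190). Ltc4s, the leukotriene C4 synthase, averaged 10.5 ± 4.92 TPM in AML mice and 1.17 ± 0.197 TPM in MPN mice (adjusted p = 0.00292). Pla2g4a, the phospholipase that frees arachidonic acid, rose by 1.26 (adjusted p = 0.00418), but missed the threshold once sex was modelled (0.91, adjusted p = 0.0572). Hpgds, the prostaglandin D synthase of mast cells and other blood cells, averaged 0.833 ± 0.237 TPM in AML mice and 2.85 ± 0.734 TPM in MPN mice (adjusted p = 0.00878). Hpgds passed the filter through the MPN mice, its higher group, and was not among the genes tested in the RPKM table or under the 5 TPM filter.

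Of 12 listed surface receptors, 7 were tested, of which 1 rose, 1 fell and 5 did not pass, with a median log2 fold change of -0.31. Cd63, a granule membrane protein that reaches the surface on degranulation, rose to 254 ± 57.1 TPM in AML mice, against 119 ± 18.5 TPM in MPN mice (limma adjusted p = 0.00625). Modelling sex lowered its log2 fold change to 0.73, against 1.08, and took the adjusted p to 0.0787. Csf2rb2, a beta subunit of the interleukin-3 receptor of mice, fell to 18.5 ± 9.32 TPM in AML mice, against 51.2 ± 0.454 TPM in MPN mice (adjusted p = 0.0204). Csf2rb2 missed the threshold whichever MPN mouse was left out (adjusted p between 0.0570 and 0.0735), and also once sex was modelled (log2 fold change -1.15, adjusted p = 0.226). Its near-identical copy Csf2rb did not pass at -0.35 (adjusted p = 0.0519), and reads can be split between them. Csf2rb passed under median scaling, quantile normalization and array weights (adjusted p = 0.0394, 0.0346 and 0.0451). Il3ra, the alpha subunit of that receptor, did not pass at 0.60 (adjusted p = 0.0573). Il3ra passed without AML replicate 1 and with array weights (adjusted p = 0.0251 and 0.00417).

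Of the transcription factor genes that passed, Gata2 had the greatest fold change. Gata2 had 97.2, 38.1 and 32.3 TPM in AML replicates 1 to 3 and 10.6, 8.35 and 4.47 TPM in MPN replicates 1 to 3. All AML mice stood above all MPN mice (log2 fold change 2.58, standard error 0.44, limma adjusted p = 0.00577), and Gata2 missed the threshold once sex was modelled (1.99, adjusted p = 0.0763). Gata1, which mast cells, basophils, eosinophils and erythroid cells use, had 20.7, 9.97 and 1.36 TPM in AML and 53.8, 53.2 and 24.0 TPM in MPN. The groups did not overlap, but Gata1 did not pass (log2 fold change -2.35, adjusted p = 0.0523). It passed at -1.45 without AML replicate 3 (adjusted p = 0.0399), at -3.04 without AML replicate 1 (0.0166) and under 6 other alternatives (0.00275 to 0.0486). Of the 8 factors, all tested, 3 rose, 0 fell and 5 did not pass, with a median log2 fold change of 0.06. Runx1 and Cebpa, factors of early myeloid cells, rose by 0.96 and 1.05 (adjusted p = 0.00192 and 0.00984), and Cebpa missed the threshold once sex was modelled (adjusted p = 0.108). Mitf, a factor of mast cells and melanocytes, averaged 1.92 ± 0.456 TPM in AML mice and 1.75 ± 0.311 TPM in MPN mice (adjusted p = 0.766).

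Of 8 listed cytokine genes, 5 were tested, of which 2 rose and 3 did not pass, with a median log2 fold change of 0.30. Il4, the interleukin-4 gene that basophils transcribe, had 3.01, 1.44 and 3.34 TPM in AML replicates 1 to 3 and 0.44, 0.78 and 0.22 TPM in MPN replicates 1 to 3 (limma adjusted p = 0.0133). Il4 passed the filter through the AML mice alone, so it had to differ to be tested, and it missed the threshold when MPN replicate 3 was left out (adjusted p = 0.0543). It was not among the genes tested in the RPKM table or under the 5 TPM filter. The chemokine gene Ccl3 averaged 11.2 ± 8.00 TPM in AML mice and 2.17 ± 0.414 TPM in MPN mice (adjusted p = 0.0165). Ccl3 missed the threshold when MPN replicate 1 or 3 was left out (adjusted p = 0.0530 and 0.0644), and once sex was modelled (0.208). In the RPKM table its log2 fold change was 0.997, against 1.76 in TPM, and it did not pass (0.0628). Ccl4 and Csf1 did not pass (adjusted p = 0.468 and 0.733).

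**Figure D3:**
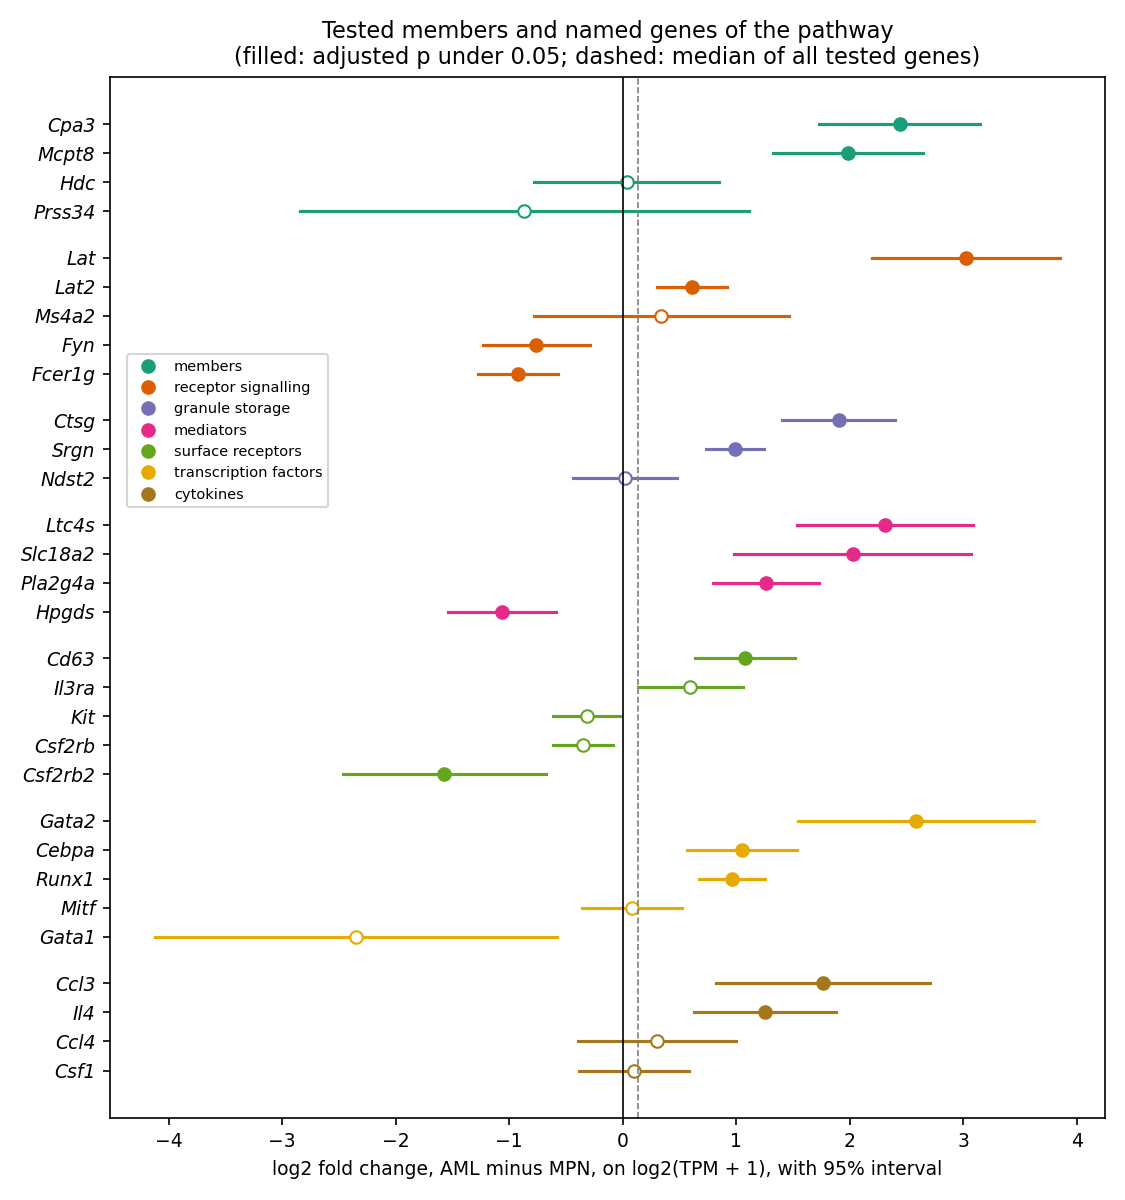
Log2 fold change, AML minus MPN, on the log2(TPM + 1) scale with 95% intervals for the 4 tested genes and the named genes of the pathway, grouped by role and filled where the adjusted p was under 0.05. Cpa3 and Mcpt8, at 2.44 and 1.98, lie to the right with Gata2, Slc18a2 and Lat, while Fcer1g and Csf2rb2 lie to the left. Gata1, open at -2.35, lies furthest to the left, and Prss34 has the widest interval of the 4 at the top.

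The AML mice differed among themselves. Relative to the MPN mean, on the log2(TPM + 1) scale, Cpa3 stood at 2.85, 2.56 and 1.90 and Mcpt8 at 1.87, 2.33 and 1.75 in AML replicates 1 to 3. Prss34 stood at 0.06, 0.27 and -2.94, and Ms4a2 at 0.96, 0.83 and -0.77. AML replicate 3 thus kept Cpa3 and Mcpt8 above every MPN mouse while Prss34 and Ms4a2 lay below every MPN mouse. Gata1 at -0.96, -1.94 and -4.15 and the erythroid factor gene Klf1 at -1.28, -2.38 and -5.14 were also lowest in that library.

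**Figure D4:**
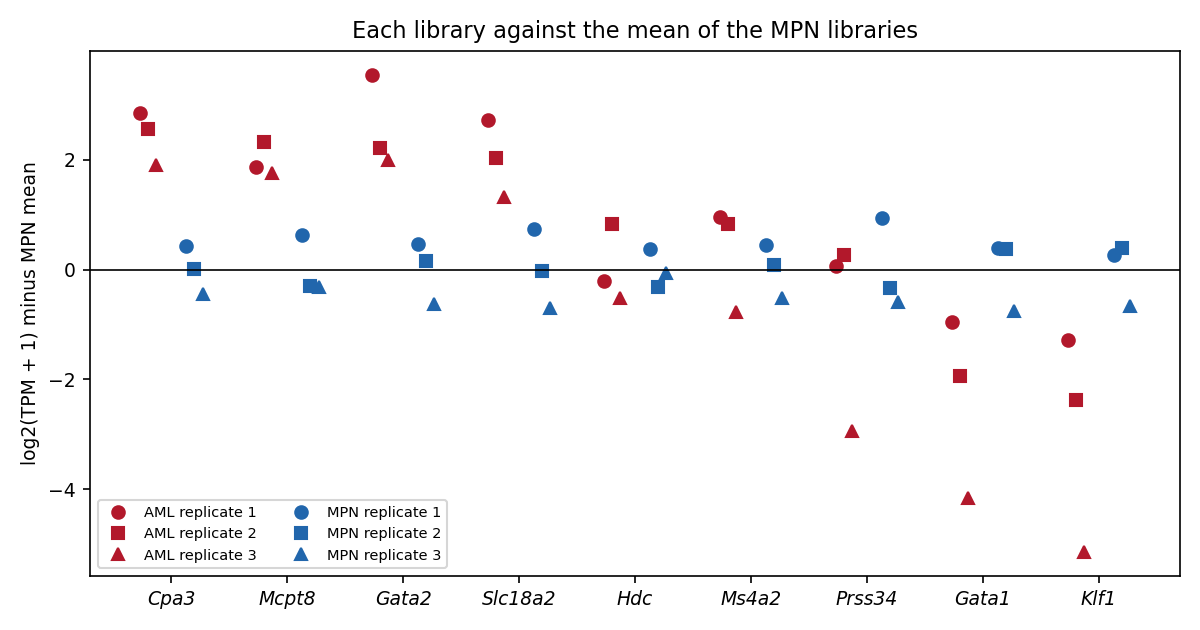
Difference of each library from the mean of the 3 MPN libraries on the log2(TPM + 1) scale, AML in red to the left of MPN in blue. Cpa3, Mcpt8, Gata2 and Slc18a2 lie above 0 in all AML mice, whereas AML replicate 3 (red triangle) reaches -2.94 for Prss34, -4.15 for Gata1 and -5.14 for Klf1.

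Marker genes of other cell types were measured as well, and some of them differed between the groups. Of 7 eosinophil markers measured, 6 were tested and 2, Epx and Ccr3, fell, and their summed level ranged from 134 to 424 TPM in AML and from 265 to 1319 TPM in MPN. Ccr3 was listed at 0 in AML replicate 3. Klf1, the erythroid factor gene, fell, with 26.7, 11.9 and 0.91 TPM in AML replicates 1 to 3 and 79.5, 87.6 and 41.5 TPM in MPN replicates 1 to 3. Car1, another erythroid marker, did not pass (log2 fold change -2.10, limma adjusted p = 0.177). The megakaryocyte markers Itga2b and Gp9 rose by 2.26 and 1.34 (adjusted p = 0.00720 and 0.0108), and Pf4 did not pass at 0.05 (adjusted p = 0.932). Of 5 stem and progenitor markers, 4 rose and Procr fell, and the sums were 310 to 466 TPM in AML and 60.9 to 75.8 TPM in MPN. Cd34 made up most of each sum. Of 5 granulocyte and monocyte progenitor markers, Ctsg and Gfi1 rose, and the sums were 3660 to 10119 TPM in AML and 3129 to 4396 TPM in MPN. All measured markers fell for dendritic cells (4), T and NK cells (4) and macrophages (4). The dendritic cell sums were 1288 to 6895 TPM in AML and 11744 to 14970 TPM in MPN. Most of each came from H2-Aa alone, at 1269 to 6770 TPM in AML and 11258 to 14346 TPM in MPN. The sums of T and NK cells were 2.5 to 6.0 TPM in AML and 156 to 244 TPM in MPN, mostly from Klrd1. The macrophage sums were 14.8 to 47.2 TPM in AML and 95.2 to 180 TPM in MPN. C1qa, a macrophage marker, was listed at 0 in AML replicates 2 and 3. Ccr3, Mecom, C1qb, Cd3e, Ncr1 and Siglech reached 1 TPM in 1 of the groups only, Mecom in AML and the others in MPN, so each had to differ to be tested. The part of these cells in the changes of Cpa3, Mcpt8 and the other genes was not tested.

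Likeness of profile was measured as the root mean square difference over the 6 libraries between log2(TPM + 1) values, each gene centred on its own mean. The 3 nearest of all tested genes to Cpa3 were Mdga1, Krt18 and Gpr125, at 0.153, 0.162 and 0.180. The 3 nearest to Mcpt8 were Pcbd1, Echdc3 and Ankrd28, at 0.162, 0.196 and 0.199, and to Hdc they were Kdm5b, Papss2 and Ptplad2, at 0.133, 0.152 and 0.157. Within 0.25 lay 27 genes for Cpa3, 12 for Mcpt8, 51 for Hdc and 0 for Prss34. The nearest to Prss34 were Apoo-ps at 0.512, Alas2 at 0.544 and Trim10 at 0.571, which all had their lowest value in AML replicate 3. Cpa3 and Mcpt8 differed from each other by 0.382, so that Mcpt8 ranked 124 in nearness to Cpa3, and Prss34 differed from Mcpt8 by 1.71. These distances describe 6 libraries in 2 groups, and many genes separate those groups.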

How the data were processed

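Gene expression was measured by strand-specific, poly-A selected RNA-seq of c-Kit+ splenocytes, with 1 library for each of 3 AML and 3 MPN mice. The authors deposited TPM values by gene symbol, made with RSEM, per the file headers. They also deposited RPKM values by Ensembl identifier, and 25213 of 25991 identifiers matched a symbol. Per the submitters' processing notes, TopHat2, RSEM and Bowtie2 were used with mm9 and mm10, without saying which build served which table. Gene positions were read from GENCODE M21 (GRCm38). The TPM table holds 27 symbols in the form of dates, none of which is named.

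The groups were compared by limma 3.58.1 (R 4.3.3) on log2(TPM + 1) (two-sided, variance trended on mean level, no covariates) for genes at 1 TPM or more in at least 3 libraries. The log2(TPM + 1) scale understates changes of low genes. Depth is lost in TPM. Per gene of the RPKM table, unread genes share a floor and 1 read had been added to each read gene, so whole reads were recovered as multiples of each library's step. Within a tolerance of 0.02, 99.49% to 99.8% of values of genes with a known floor were whole in each library. Where no floor was seen, the smallest whole reads that match all 6 libraries were taken, a rule that found the known floor again in 300 of 300 genes tried. Reads are not independent molecules, so they bound counting error only.

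The 7 genes and all lists were chosen with earlier results of these data known. Named were these genes, Dnmt3a, Flt3 and Kit, the 4 smallest p of each pathway list, direct partners of the 7, and the 3 nearest profiles. Replicate numbers follow accession order and pair no animals. Alternatives were pseudocounts of 0.1 and 5, quantile normalization, median scaling, the RPKM table, a 5 TPM filter or none, no trend, array weights (whose estimation stopped before full convergence), a term for sex, and leaving out each mouse. Proteins were not analysed here. The summed results of 2 marker lists are not reported here.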

Additional observations from a re-analysis of the deposited data

How the results depend on the processing

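No paired analysis was possible because the labels give the mice no shared replicate numbers. Cpa3 and Mcpt8 kept their direction and their call under all 16 alternatives, with log2 fold changes of 1.90 to 2.71 for Cpa3 and 1.75 to 2.30 for Mcpt8. In place of 0 members, 2 were called lower with no filter, Cma1 at -0.68 (limma adjusted p = 0.0483) and Tpsb2 at -0.49 (0.00152), where 7.37% of the 17949 genes were called lower, and 1, Prss34, with a term for sex (4.38% of all tested genes). Of all tested genes, 3678 were called, 1208 with a term for sex, and 2009 to 3705 with 1 mouse left out, the lowest 3 counts without an MPN mouse. The share of calls that were higher in AML was 66.7%, and 59.0% under median scaling, which moved the median log2 fold change to 0.05. Sign changes occurred in genes that passed in neither setting. Hdc was -0.0482 under median scaling, -0.0461 under quantile normalization and -0.51 with a term for sex, and ranged from -0.36 to 0.31 with 1 mouse left out. Prss34 ranged from -1.44 to 0.17 with 1 mouse left out. Ms4a2 was -0.77 and Csf1 -0.24 with a term for sex. Ndst2 was -0.0637 under median scaling, -0.07 under quantile normalization and -0.20 with array weights, and ranged from -0.14 to 0.18 with 1 mouse left out. Mitf was -0.0026 under median scaling and ranged from -0.0406 to 0.17 with 1 mouse left out. Csf1 was -0.0106 under quantile normalization and -0.0395 with array weights, ranging from -0.0281 to 0.27 with 1 mouse left out. Ccl4 was -0.26 with array weights. The cause was not tested. A term for sex leaves 1 AML mouse, so its fits rest on fewer animals. With at most 69 reads per library, Cma1, Tpsb2 and Fcer1a are limited by depth.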
